A study of Mus musculus with 9 samples.

Results

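Stanniocalcin and hypoxia response genes were examined in 6 alveolar rhabdomyosarcomas of mice and in skeletal muscle of 3 wild-type samples, 10 genes of the 12393 that the array could name. The genes are the stanniocalcins Stc1 and Stc2, the oxygen-regulated transcription factor subunit Hif1a, the oxygen sensors Egln1 and Egln3, the secreted factors Vegfa and Adm, and Ndrg1, Ddit4 and Bnip3. They were read by all 22 probe sets that carry only that gene symbol in the platform annotation. The group was chosen by the Stc1 signal, which was high in the tumours over muscle and differed from tumour to tumour, so its own difference is given as a description with no test. The other 9 genes were named for their role in hypoxia, with earlier results of these data known. Alveolar rhabdomyosarcoma is a malignant tumour whose cells carry part of the skeletal muscle programme. Each sample was total RNA on a single Affymetrix array, read as a MAS5 signal, a linear brightness in arbitrary units. The labels used here call the muscles wild-type but give no genotype of the tumours, and no age, tumour site or treatment. They do not say which muscles were taken or whether samples came from separate animals. The p-values thus measure only the spread between these samples, which may be technical.

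As background, cells that run short of oxygen stabilise the HIF-1alpha protein, because the prolyl hydroxylases encoded by Egln1 and Egln3 need oxygen to mark it for destruction through the VHL ubiquitin ligase. HIF then raises transcription of genes for blood vessel growth, glucose use and adaptation of mitochondria, Egln3 among them. The level of Hif1a RNA itself often does not follow the protein, and several targets also answer to other signals, such as the stress factor ATF4. Stanniocalcins are secreted glycoproteins, first known from calcium control in fish. In mammals they act locally and bind the protease pappalysin, which frees insulin-like growth factors from their binding proteins.

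Facts of the arrays come before the results. Muscles 1 and 3 were deposited on a lower scale and were multiplied by 1.7 and 3.55, while the factors of the other 7 arrays were 1.0. Tumour 1 stood apart, with a mean correlation of 0.737 to the other tumours across genes, against 0.817 to 0.867 for the other tumours. Gapdh signal at the 3' end over that at the 5' end, which grows when RNA is degraded, came to 57.2 and 33.0 for muscles 2 and 3, to 1.68 for muscle 1, and to between 1.93 and 9.39 for the tumours. The same ratio for Actb did not set these muscles apart, at 4.06 and 4.35 for muscles 2 and 3, 1.87 for muscle 1 and 3.35 to 6.78 for the tumours. Of 6 markers of mature skeletal muscle 5 were lower in tumours, and their summed signal was 120100 to 162968 in muscles and 939 to 65007 in tumours, highest in tumour 1. Of 6 markers of myoblasts or rhabdomyosarcoma, Ncam1 was called higher and Des lower, and summed signals overlapped (3051 to 8166 in tumours, 2628 to 5833 in muscles). Of 7 macrophage markers 6 were higher in tumours (summed signal 8394 to 39363, against 2655 to 3891). Of 6 endothelial markers, which mark the cells that line vessels, 1 was lower and 5 did not pass (774 to 2061 in tumours, 2500 to 2955 in muscles). Of 5 fibroblast markers 1 was lower (6305 to 38049 and 21799 to 23906) and both adipocyte markers were lower (145 to 1213 and 7613 to 9761). Neither of 2 red blood cell markers passed (30 to 11148 and 424 to 942). No marker was at 0 on all arrays. The part of cell makeup, of tumour 1 and of RNA quality in the results below was not tested, and in bulk tissue fewer cells of a type and less RNA per cell cannot be told apart.

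Among the 9 genes other than Stc1, Egln1, Vegfa and Bnip3 were lower in the tumours by their brightest probe set, and none was called higher; by this measure 8.4% of all 12393 genes were called higher and 8.77% lower, 17.2% in either direction. A second probe set of Egln3 was higher. In all, 1 of 20 probe sets of these genes was called higher and 3 lower at an adjusted p under 0.05, where 7.88% of all 22626 probe sets were called higher and 7.53% lower. Of all 22 probe sets, 3 had tumour signals above every muscle and 2 below every muscle, where 10.1% and 9.7% of all probe sets did. The genes were chosen with earlier results of this contrast known, so nothing is read from these counts. The differences of these 9 genes ran from -2.57 to 1.40 on the log2 scale, with a median of 0.92, against 0.1 for all genes. The count of called genes depended on the rescaling of muscles 1 and 3: with the values as deposited, 4 of the 9 genes were called higher and 1 lower, while the median difference of all genes was 0.79.

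**Figure D1:**
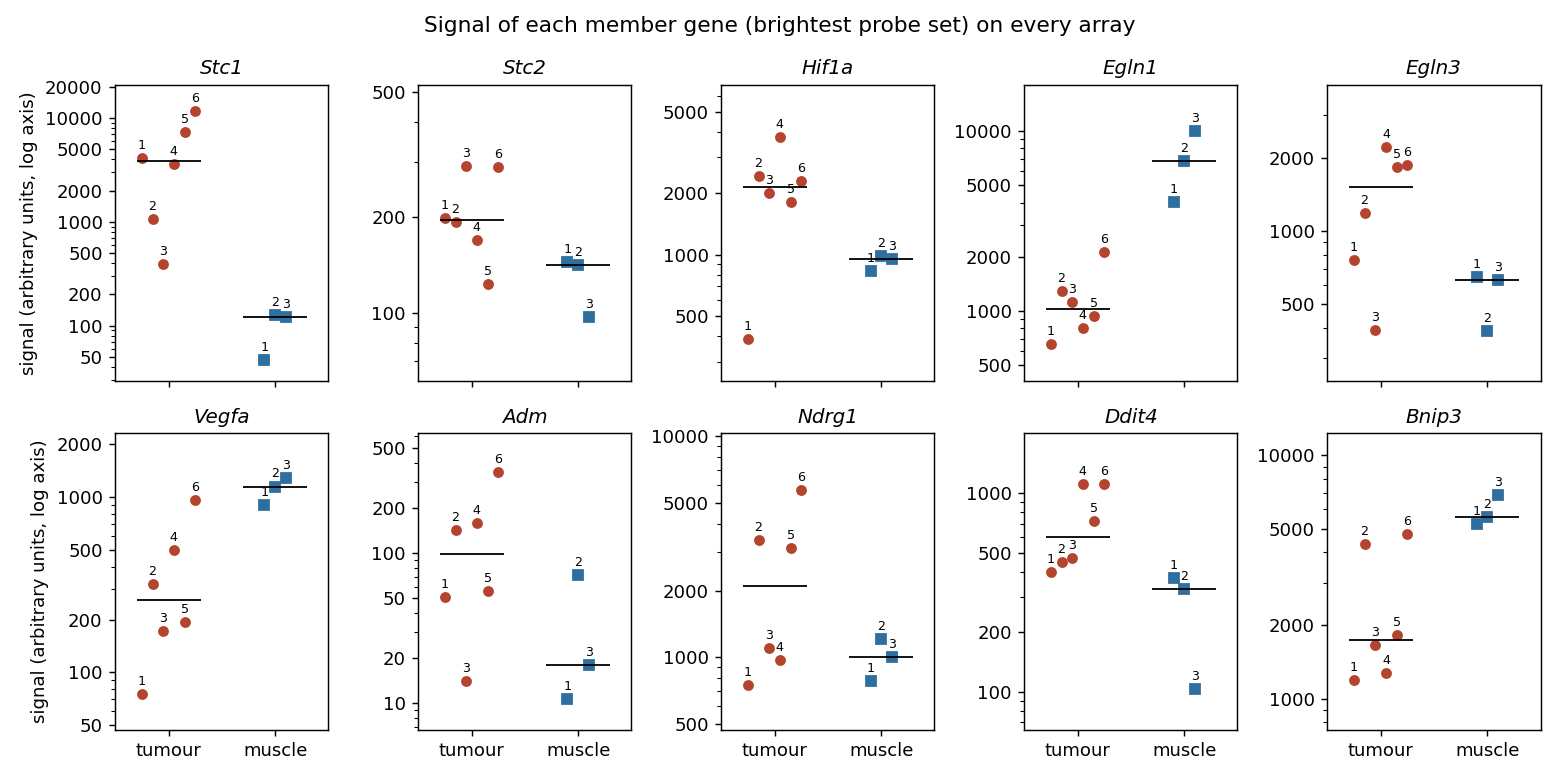
Signal of each of the 10 genes by its brightest probe set (vertical log axes, arbitrary units, a separate scale in each panel) on 6 tumour arrays (circles) and 3 muscle arrays (squares), numbered as the samples, with the median of each group as a line. Stc1 lay above the muscles in every tumour, from 396 to 11532, and Egln1 and Bnip3 lay below the muscles in every tumour.

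Stc1, the stanniocalcin gene for which the group was chosen, was high and uneven in the tumours. Its brighter probe set (1450448_at) gave signals of 4122, 1075, 396, 3562, 7277 and 11532 in tumours 1 to 6 and of 46.8, 127 and 120 in muscles 1 to 3. Every tumour lay above every muscle, and the highest tumour was 29.1 times the lowest. The order of the tumours from low to high was 3, 2, 4, 1, 5, 6. Each tumour was read on a single array, so the steps between neighbours in this order have no error of their own. Tumours averaged 4661 ± 4162 (SD, n = 6) and muscles 98 ± 44.4 (SD, n = 3), a difference of 4.75 ± 0.82 on the scale of log2(signal + 16) (SE), or 26.9-fold. It ranked 7 among 12393 genes by this difference, and 98.8% of genes had a smaller spread over the tumours (SD of 1.79 for Stc1, median of 0.7 for all genes, log2).

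The second Stc1 probe set did not show this pattern. 1421984_at gave 444, 95, 118, 278, 55.7 and 150 in tumours 1 to 6 and 142, 11.9 and 36.9 in the muscles. The groups overlapped, with 3 of 6 tumours above every muscle, and the difference was 1.46 ± 0.65 (log2 ± SE). Over the 6 tumours the log2 signals of the 2 probe sets had a Pearson correlation of 0.12, given as a description. Tumour 5, next to the highest by the bright probe set, was the lowest by the dim one, and tumour 1 was the highest by the dim one. Both probe sets carry the same source accession in the annotation, and which part of the transcript each reads was not examined. The uneven level of Stc1 thus rests on a single probe set.

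Stc2, the other stanniocalcin gene, did not pass the test. Its brighter probe set gave 199, 193, 292, 170, 123 and 288 in tumours 1 to 6 and 145, 141 and 97 in the muscles. Of the tumours, 5 lay above every muscle and tumour 5 lay among them. The difference was 0.62 ± 0.42 (log2 ± SE, adjusted p = 0.39), and that of the second probe set was -0.10 ± 0.46 (adjusted p = 0.93). Of 3 other genes on the list of IGF release, the step on which stanniocalcins act, none passed by its brightest probe set. Pappa, the pappalysin gene, differed by -0.11 ± 0.46, the binding protein gene Igfbp4 by 1.45 ± 0.52 (adjusted p = 0.079) and Igfbp5 by 0.09 ± 0.70. However, 2 of the 6 probe sets of Igfbp4 were called higher.

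Hif1a, the oxygen-labile subunit of HIF-1, was not called, and its call turned on tumour 1. The brightest of its 4 probe sets (1427418_a_at) gave 385, 2427, 2004, 3763, 1817 and 2296 in tumours 1 to 6 and 835, 989 and 958 in the muscles. Tumours 2 to 6 lay above every muscle and tumour 1 below every muscle. The difference was 0.92 ± 0.54 (log2 ± SE, adjusted p = 0.31). Without tumour 1 it was 1.35 and was called (adjusted p = 0.0059), and it was also called without rescaling (0.03), in a range of 0.0059 to 0.81 over 22 alternatives. The other 3 probe sets, at 0.13 ± 0.49, 0.10 ± 0.66 and -0.51 ± 0.68, did not pass. Of 5 other HIF subunits and partners, 1 was lower and 4 did not pass: the coactivator gene Crebbp was lower at -1.64 ± 0.50 (adjusted p = 0.038), while Epas1, which encodes HIF-2alpha, and the dimer partner Arnt differed by -0.51 ± 0.60 and 0.34 ± 0.59. The Crebbp call was lost without muscle 1, 2 or 3 (0.058, 0.16 and 0.16) or tumour 3 (0.054), in a range of 0.01 to 0.32.

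Of the oxygen sensors, Egln1 was lower in tumours, while Egln3 was not called by its brightest probe set. Egln1, which encodes the main HIF prolyl hydroxylase, gave 653, 1290, 1117, 808, 934 and 2131 in tumours 1 to 6 and 4005, 6756 and 9980 in the muscles. Every tumour lay below every muscle. Tumours averaged 1155 ± 527.9 (SD, n = 6) and muscles 6914 ± 2990 (SD, n = 3), 5.95-fold lower in tumours on the log2(signal + 16) scale (log2 difference of -2.57 ± 0.41, adjusted p = 0.00071). This call held under all 22 alternatives, with adjusted p from 0.00017 to 0.022. The dimmer Egln1 probe set differed by -1.71 ± 0.58 (adjusted p = 0.061), and its order over the tumours ran against that of the bright one (r = -0.64 over 6 tumours, a description).

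Egln3, a hydroxylase gene that is itself a HIF target, was higher by 1 of 2 probe sets. 1418648_at gave 404, 864, 173, 843, 492 and 4174 in tumours 1 to 6 and 94.1, 153 and 152 in the muscles. Every tumour lay above every muscle, tumour 3 by little, and tumour 6 was far above the rest. The difference was 2.28 ± 0.70 (adjusted p = 0.041), 4.85-fold. The brighter probe set, 1418649_at, gave 764, 1185, 391, 2212, 1838 and 1862 against 646, 387 and 631, with 5 tumours above every muscle. It did not pass, at 1.11 ± 0.49 (adjusted p = 0.16), but passed without tumour 3 (0.034) and without rescaling (0.012, in a range of 0.012 to 0.76). The call of 1418648_at was lost without muscle 1, 2 or 3 (0.15, 0.11 and 0.12) or tumour 2, 4 or 5 (0.065, 0.072 and 0.055), in a range of 0.00089 to 0.19. Of 8 other genes of oxygen sensing and HIF turnover, 1 was lower and 7 did not pass. The lower one was Cul2, the cullin of the VHL ligase, at -1.05 ± 0.31 (adjusted p = 0.035). Its call was lost without muscle 1, 2 or 3 (0.074, 0.12 and 0.2) or tumour 4 or 5 (0.058 and 0.072), in a range of 0.011 to 0.79. Vhl itself differed by 0.00 ± 0.55.

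**Figure D2:**
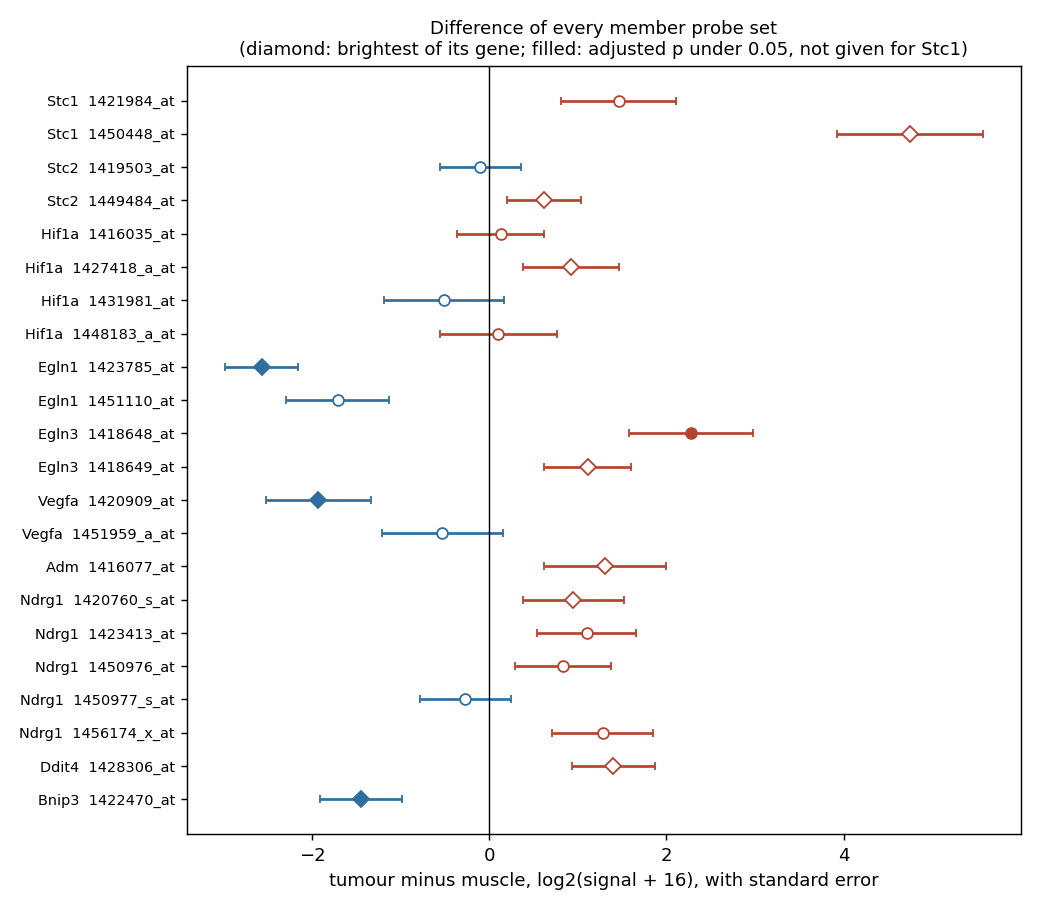
Difference between tumour and muscle for each of the 22 probe sets (horizontal axis, log2(signal + 16), with the standard error as bars; 6 tumours, 3 muscles). Filled symbols passed an adjusted p of 0.05, with no call given for Stc1; 1 probe set of Egln3 lies to the right at 2.28, and 1 each of Egln1, Vegfa and Bnip3 to the left at -2.57, -1.93 and -1.45.

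Promoter letters are shown for the oxygen sensors Egln1, which was lower in tumours, and Egln3, and for Bnip3 and Ddit4, whose tumour signals lay below and above every muscle. Each is the 250 bases before the gene's start in RefSeq (build GRCm38.p6), 5' to 3' on the gene's strand. Capitals mark ACGTG or GCGTG on either strand (CACGT or CACGC), the core of the hypoxia response element that HIF binds.

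Egln1 chr8:124949255-124949504 (- strand): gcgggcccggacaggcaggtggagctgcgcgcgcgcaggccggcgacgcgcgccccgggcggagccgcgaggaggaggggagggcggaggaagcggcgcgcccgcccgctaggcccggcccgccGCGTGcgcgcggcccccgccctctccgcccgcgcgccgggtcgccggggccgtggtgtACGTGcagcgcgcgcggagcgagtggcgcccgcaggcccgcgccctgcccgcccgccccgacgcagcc

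Egln3 chr12:54203875-54204124 (- strand): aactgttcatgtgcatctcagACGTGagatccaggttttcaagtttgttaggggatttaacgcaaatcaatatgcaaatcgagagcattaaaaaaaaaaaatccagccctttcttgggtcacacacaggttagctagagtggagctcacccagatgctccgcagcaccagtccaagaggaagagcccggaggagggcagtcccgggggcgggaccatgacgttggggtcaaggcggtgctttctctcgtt

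Bnip3 chr7:138909507-138909756 (- strand): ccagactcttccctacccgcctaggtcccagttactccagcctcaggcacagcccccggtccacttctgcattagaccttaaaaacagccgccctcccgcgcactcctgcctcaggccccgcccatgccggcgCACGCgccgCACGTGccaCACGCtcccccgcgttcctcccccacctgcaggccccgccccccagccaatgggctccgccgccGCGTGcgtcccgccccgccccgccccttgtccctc

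Ddit4 chr10:59951771-59952020 (- strand): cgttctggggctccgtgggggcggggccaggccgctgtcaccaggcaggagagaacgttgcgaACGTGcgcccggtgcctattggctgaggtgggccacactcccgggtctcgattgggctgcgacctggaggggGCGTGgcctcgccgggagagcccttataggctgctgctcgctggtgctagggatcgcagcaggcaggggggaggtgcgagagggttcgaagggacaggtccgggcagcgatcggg

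Bnip3 had 5 matches, of which 2 overlap as the palindrome CACGTG and so are a single site read on both strands, at 108 and 107 bases before the start. Egln1 had 2, at 126 and 68 bases, Ddit4 2, at 187 and 115 bases, and Egln3 1, at 229 bases. Of the 10 genes 8 had a promoter sequence at hand, and Stc1 and Ndrg1 had none. There were 9 promoters, since Vegfa has 2, and 8 of the 9 held a match. The promoter without a match was that of the upstream Vegfa start. The window of the other Vegfa start held 2, but it lies downstream of the first start. Those bases can thus be transcribed or coding sequence, which was not examined. Which Vegfa start is in use was not examined. Of 32851 promoters of the same length 38.6% held either core, 16.6% ACGTG and 28.2% GCGTG. A match is a description of the sequence, not a binding site.

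Of the secreted factors Vegfa was lower in tumours and Adm did not pass. Vegfa, the vascular endothelial growth factor that drives vessel sprouting, gave 75.3, 321, 173, 500, 194 and 966 in tumours 1 to 6 and 897, 1150 and 1284 in the muscles by its brighter probe set. Tumours 1 to 5 lay below every muscle and tumour 6 reached between muscles 1 and 2. The difference was -1.93 ± 0.59 (log2 ± SE, adjusted p = 0.039), and that of the dimmer probe set was -0.53 ± 0.68 (adjusted p = 0.7). The call was lost without muscle 1, 2 or 3 (0.085, 0.13 and 0.16) or tumour 3 or 5 (0.073 and 0.074), as the mean of both probe sets (0.14) and without rescaling (0.2), in a range of 0.0037 to 0.2. The lower Vegfa stands beside lower summed signals of mature muscle and endothelial markers in tumours, whose part in it was not tested.

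Adm encodes adrenomedullin, a vasodilator peptide and a common HIF target. It gave 51.3, 142, 14.2, 160, 55.8 and 349 in tumours 1 to 6 and 10.7, 71.8 and 17.9 in the muscles. Tumours 2, 4 and 6 lay above every muscle, and tumours 1, 3 and 5 within the range of the muscles. The difference was 1.31 ± 0.69 (adjusted p = 0.25), not called, and these signals are low for this array. Of 4 adrenomedullin receptor genes only Ramp1, a receptor partner, passed: it was lower, at -2.51 ± 0.45 (adjusted p = 0.0017). The receptor gene Calcrl, at -1.52 ± 0.59, and Ramp2 and Ramp3, at -0.24 ± 0.48 and 0.69 ± 0.41, did not pass.

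In the VEGF family 1 of 9 other genes was higher and 1 lower. Vegfb, a ligand expressed in oxidative muscle, had signals of 10 to 62 in tumours and 563 to 933 in muscles, a difference of -4.32 ± 0.46 (adjusted p = 3.6e-05). The tumour values are low, and the size of this fold depends on the offset (-5.12 to -3.2 over 21 alternatives). Nrp2, a coreceptor, was higher at 1.21 ± 0.35 (adjusted p = 0.031), a call lost without muscle 1, 2 or 3 (0.11, 0.067 and 0.15) or tumour 3 or 6 (0.062 and 0.051), in a range of 0.0051 to 0.15. The receptor genes Flt1 and Kdr did not pass by their brightest probe sets, at -0.12 ± 0.36 and -0.89 ± 0.35 (adjusted p = 0.11). Of the 3 probe sets of Flt1, 1 was called lower.

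Ndrg1, a stress-induced gene of growth arrest and differentiation, was uneven in tumours and was not called. Its brightest probe set gave 751, 3397, 1104, 965, 3101 and 5711 in tumours 1 to 6 and 781, 1202 and 1003 in the muscles. Tumours 2, 5 and 6 lay above every muscle and tumour 1 below, and the difference was 0.95 ± 0.57 (adjusted p = 0.32). A second probe set, 1456174_x_at, ran with it over the tumours (r = 0.9) and differed by 1.28 ± 0.57 (adjusted p = 0.16). Probe set 1423413_at ran against it (r = -0.61), with 1157 in tumour 1 and 173 to 298 in the others. The remaining 2 differed by 0.83 ± 0.54 and -0.27 ± 0.51. Ndrg1 was called higher without tumours 1 and 4 (0.038) and without rescaling (0.03, in a range of 0.03 to 0.69). Of its 3 relatives, Ndrg2 was lower at -3.61 ± 0.51 (adjusted p = 0.00032), with 341 to 1653 in tumours and 5594 to 11960 in muscles, and Ndrg3 and Ndrg4 did not pass.

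Ddit4 encodes REDD1, which restrains the growth kinase complex mTORC1 under stress. It gave 399, 451, 469, 1106, 726 and 1108 in tumours 1 to 6 and 375, 330 and 103 in the muscles. Every tumour lay above every muscle, but tumours 1 to 3 only slightly, and the difference of 1.40 ± 0.47 (2.64-fold) missed the threshold (adjusted p = 0.061). It was called without tumour 1 (0.033) and without rescaling (0.0093, in a range of 0.0093 to 0.44). Of 9 other genes of mTORC1 control 2 were lower and 7 did not pass. Ddit4l, the REDD2 gene known from muscle, had signals of 44 to 206 in tumours and 2291 to 4457 in muscles, a difference of -4.93 ± 0.45 (adjusted p = 1.9e-05). Txnip, an inhibitor of thioredoxin and glucose uptake, was lower at -2.01 ± 0.40 (adjusted p = 0.0034), a call lost without rescaling (0.14) and as the mean of its probe sets (0.061), in a range of 0.00055 to 0.14. Its second probe set differed by -0.57 ± 0.59 (adjusted p = 0.62).

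Bnip3 encodes a mitochondrial receptor that targets mitochondria for autophagy, and is abundant in muscle. It gave 1193, 4312, 1658, 1274, 1821 and 4741 in tumours 1 to 6 and 5243, 5603 and 6847 in the muscles. Every tumour lay below every muscle, tumours 2 and 6 closely. The difference was -1.45 ± 0.46 (2.73-fold lower in tumours, adjusted p = 0.047). This call was lost without muscle 1, 2 or 3 (0.1, 0.13 and 0.19), without tumour 1, 3, 4 or 5 (0.052, 0.086, 0.089 and 0.087) and without rescaling (log2 difference of -0.59, 0.46), in a range of 0.012 to 0.46. Of 6 other mitophagy genes 2 were lower: Pink1, the kinase that tags damaged mitochondria, at -2.87 ± 0.35 (adjusted p = 0.0001), and the receptor gene Fundc1 at -1.25 ± 0.35 (adjusted p = 0.028). The Fundc1 call was lost without muscle 1, 2 or 3 (0.077, 0.13 and 0.11) or tumour 5 (0.06), and was 0.32 as the mean of its probe sets, in a range of 0.0073 to 0.6. The lower signals of Bnip3 and Pink1 stand beside those of mature muscle markers, whose part was not tested.

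The wider hypoxia pathway did not move one way. Of 56 other genes on 5 lists 8 were higher, 11 lower and 37 did not pass, with a median difference of 0.26 (log2) against 0.1 for all genes. For the main fit the shares of all genes called, 8.4% higher and 8.77% lower, are the background here too. Without the rescaling of muscles 1 and 3, 18 were higher and 0 lower, where 2281 of all 12393 genes were higher and 357 lower. With median centring 8 were higher and 5 lower, where 752 of all genes were higher and 1029 lower. Calls were 12, 11 and 8 in all without muscle 1, 2 or 3. The share of all genes called fell as well, from 17.2% to 11.7%, 9.88% and 8.53%.

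Genes of glucose use held most of these calls, with 6 of 15 higher and 5 lower. The glucose transporter genes Slc2a1 and Slc2a3 were higher at 3.34 ± 0.71 and 2.92 ± 0.70 (adjusted p = 0.0053 and 0.011), and Pgam1, the general phosphoglycerate mutase, at 2.30 ± 0.32 (adjusted p = 0.00027). Slc2a1 was uneven, at 3706, 834, 296, 4767, 1190 and 3308 in tumours 1 to 6, all above the muscles (95 to 196). Pfkfb3, an activator of glycolysis, and Hk2, the hexokinase of muscle, were lower at -2.41 ± 0.59 and -2.18 ± 0.37 (adjusted p = 0.013 and 0.001). Without muscle 3 the calls of Slc2a3 (0.067, in a range of 6.3e-05 to 0.14) and Pfkfb3 (0.12, in a range of 0.0061 to 0.12) were lost. Without rescaling those of Hk2 (0.074, from 0.00015) and Pfkfb3 (0.053) were lost. As the mean of its probe sets Slc2a3 differed by 1.61 and was not called (adjusted p = 0.072), and 2 of its 4 probe sets passed.

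Of 12 other secreted and vascular targets 1 was higher and none lower. Plod2, a collagen-modifying lysyl hydroxylase, was higher at 2.39 ± 0.53 (adjusted p = 0.0072), with 3253 in tumour 2 and 476 to 1236 in the others, against 109 to 182 in muscles. The call was lost without muscle 3 (0.055, in a range of 0.00021 to 0.055). Of 16 remaining targets 1 was higher and 4 lower. Maff, a small Maf factor, was higher at 2.60 ± 0.56 (adjusted p = 0.0059), with 48 to 372 in tumours and 12 to 28 in muscles. The muscle values are low, and the size of this fold depends on the offset (1.66 to 3.37 over 21 alternatives). Its adjusted p ran from 0.00069 to 0.08. The transferrin receptor gene Tfrc, the lipoprotein receptor gene Vldlr and the sterol sensor gene Insig2 were lower at -2.19 ± 0.49, -1.93 ± 0.36 and -1.92 ± 0.51 (adjusted p = 0.0075, 0.0021 and 0.019), and these 3 calls were lost without rescaling (0.1, 0.16 and 0.19). That of Insig2 was also lost without muscle 2 or 3 (0.1 and 0.11). As the mean of its probe sets Tfrc differed by -1.09 and was not called (adjusted p = 0.051), and 1 of its 3 probe sets passed. The ranges for Tfrc, Vldlr and Insig2 were 0.0011 to 0.1, 0.00033 to 0.16 and 0.0042 to 0.19. Car9, carbonic anhydrase 9 and a widely used hypoxia marker, differed by 0.45 ± 0.49, and did not pass.

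Targets of the stress factor ATF4, which include Stc2 and Ddit4, gave 3 higher and 1 lower of 10 other genes. Psat1 and Asns, of serine and asparagine synthesis, were higher at 3.27 ± 0.45 and 2.38 ± 0.42 (adjusted p = 0.00027 and 0.0016), with all tumours above all muscles. Ddit3, which encodes CHOP, was higher at 1.65 ± 0.48 (adjusted p = 0.031). That call was lost without muscle 1 or 2 (0.07 and 0.21) or tumour 3, 4 or 5 (0.053, 0.055 and 0.059), in a range of 0.004 to 0.21. The lower gene was Vldlr, and Atf4 itself differed by 0.43 ± 0.38.

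**Figure D3:**
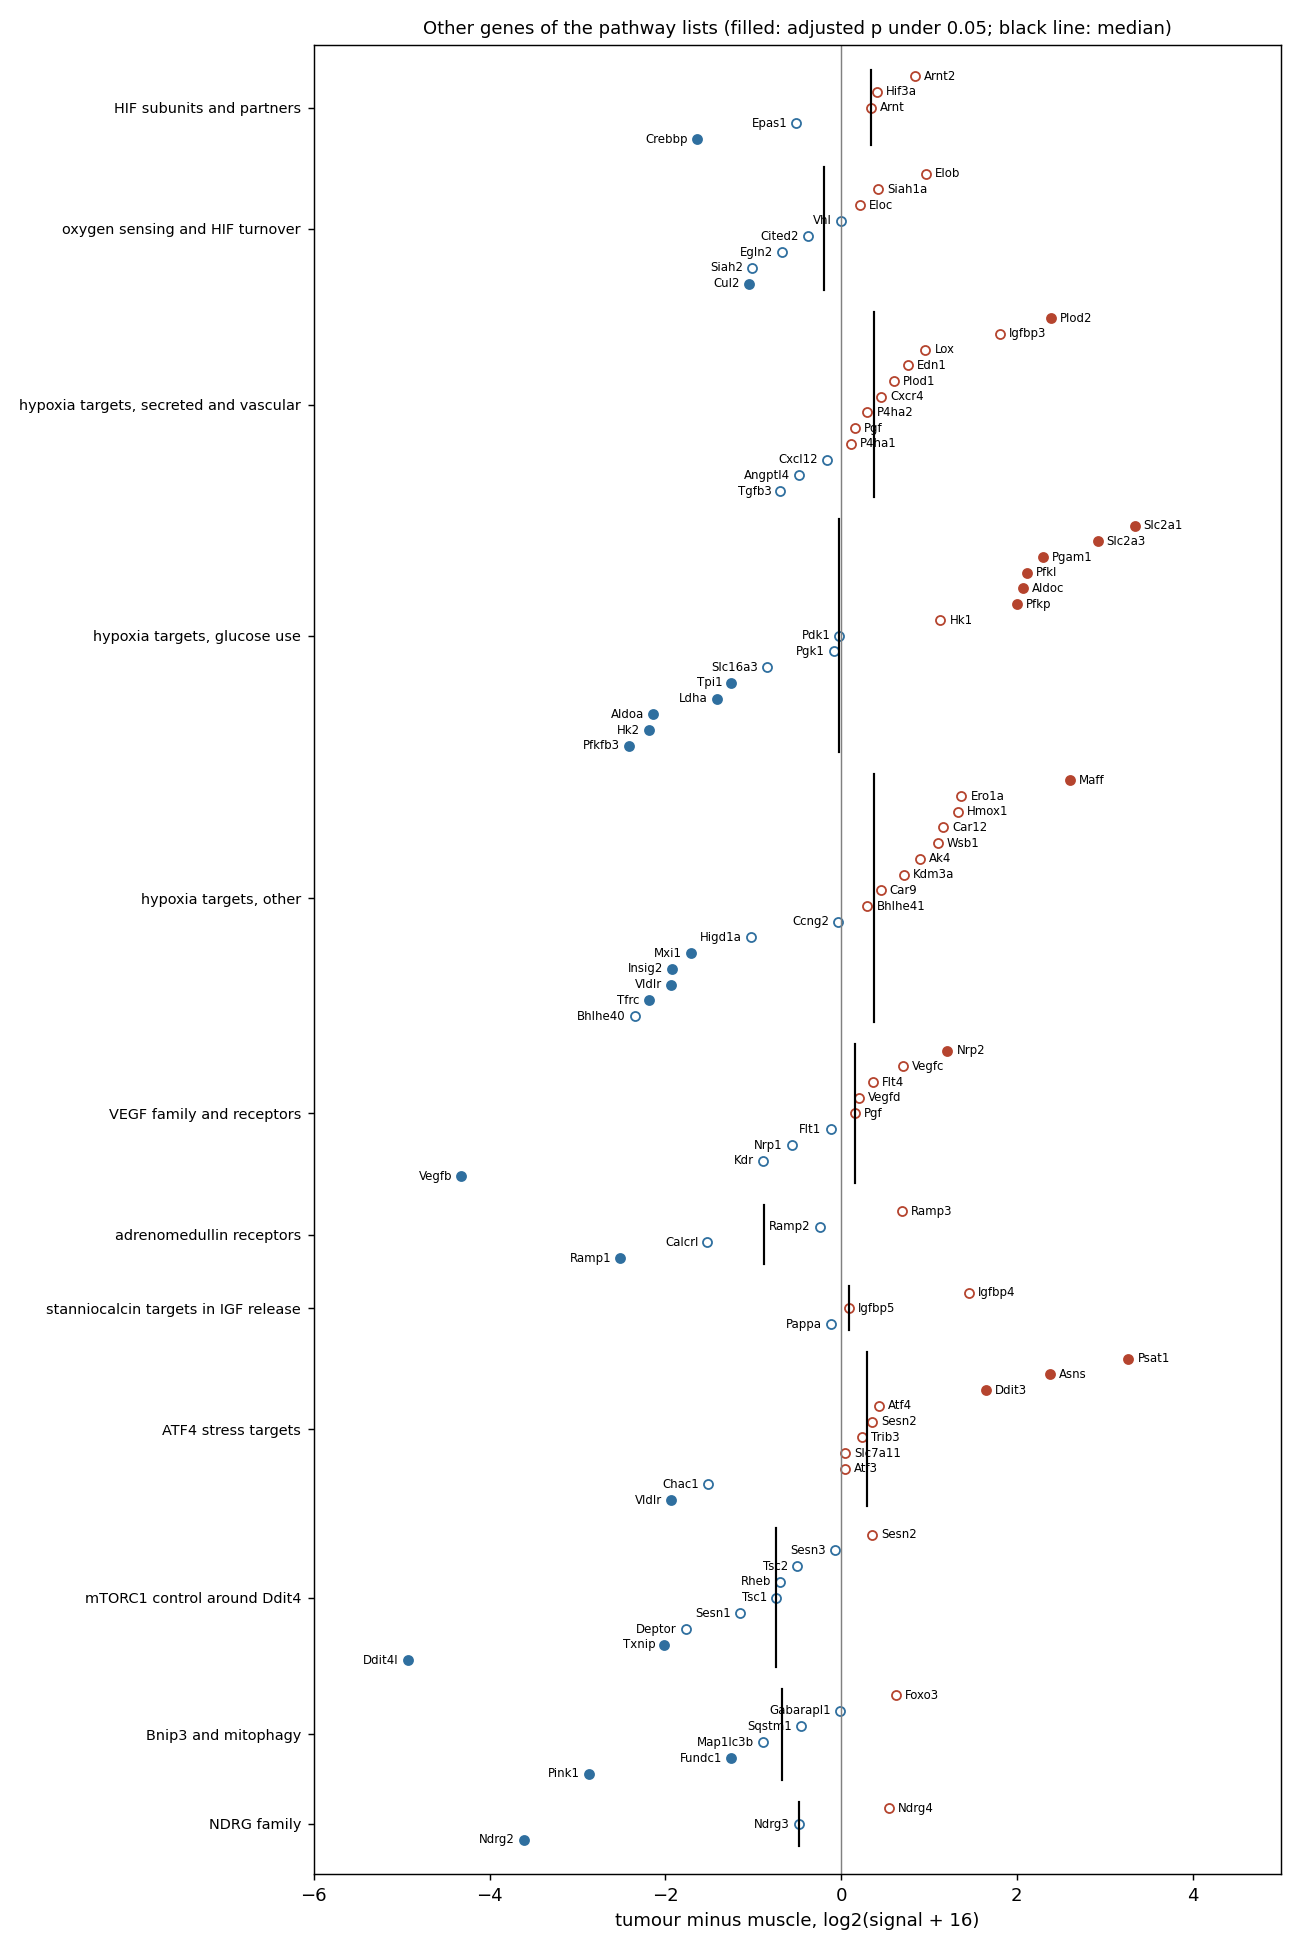
Difference between tumour and muscle (horizontal axis, log2(signal + 16)) of the other genes on 12 pathway lists, 1 point per gene by its brightest probe set, with each list's median as a black line. Filled points passed an adjusted p of 0.05; in the list of glucose use 6 lie to the right and 5 to the left.

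Whether the uneven Stc1 level went with the hypoxia genes was tested over the 6 tumours, a relation the choice of genes did not use. Egln3 had the highest Pearson correlation with Stc1, at 0.77 (exact permutation p = 0.079, adjusted p = 0.62 over 9 relations, two-sided), with a Spearman rho of 0.54 (exact permutation p = 0.3, adjusted p = 0.74). Ddit4 and Adm followed, at 0.62 and 0.61 (exact permutation p = 0.21 each, adjusted p = 0.62). Vegfa, Ndrg1, Egln1 and Bnip3 had r of 0.35, 0.39, 0.13 and 0.12, and Hif1a and Stc2 of -0.11 and -0.33, with adjusted permutation p of 0.77 to 0.85. None of the 9 relations passed, before or after adjustment. Tumours 3 and 2, with the lowest Stc1, lay farthest from its median. Without them r was 0.3 for Egln3, 0.5 for Adm and 0.36 for Ddit4, but 0.97, 0.94 and 0.9 for Ndrg1, Bnip3 and Egln1. These values rest on tumours 1, 4, 5 and 6 alone and are descriptions with no p. When only tumour 6 was left out, r was 0.05, -0.37 and -0.66 for Ndrg1, Bnip3 and Egln1. It was then 0.74, 0.39 and 0.45 for Egln3, Adm and Ddit4. No batch or scan date is named in the labels or files used here, so no within-batch value is given.

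By the brightest probe set, tumour 6 carried the highest signal for 7 of the 10 genes. The lowest was in tumour 1 for 6 genes and in tumour 3 for 3. The 7 and the 3 include Stc1, whose uneven values chose the group. Of the other probe sets, 1418648_at of Egln3 and 1456174_x_at of Ndrg1 were also highest in tumour 6. Highest in tumour 1 were the second of Stc1 and of Egln1, 1431981_at and 1448183_a_at of Hif1a, and 1423413_at and 1450977_s_at of Ndrg1. The rest were highest in tumour 2, 3 or 4. Over all 12393 genes tumour 6 was highest for 11.2%, tumour 1 lowest for 20.1% and tumour 3 lowest for 9.03%, while tumour 1 was also highest for 37.6%. Among the 56 other genes of the hypoxia lists tumour 6 was highest for 30.4%, tumour 1 lowest for 23.2% and tumour 3 lowest for 32.1%. Ero1a, an oxidase of protein folding and a HIF target, showed the same top tumour, with 3890 in tumour 6 and 608 to 1468 in the others; its brightest probe set did not pass (1.37 ± 0.47, adjusted p = 0.065), while its other 2 did. No test was made of these shares. Tumour 6 also had the lowest summed macrophage and endothelial markers of the 6 tumours (8394 and 774) and the highest summed red blood cell markers (11148), nearly all of it from Alas2, a haem synthesis gene (11099). Their part in the member values was not tested.

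The search for genes with a pattern like that of Stc1 over the 6 tumours took only genes above limits of signal and spread. The first 10 held no gene of the hypoxia lists. The limit of spread left out genes that varied less, among them the member Egln3 (SD of 0.94, log2). The r of Egln3 with Stc1, 0.77, was below the lowest r among the first 10, 0.914. Hypoxia genes that vary less but follow Stc1 more closely can still be missing from the search. Among 1069 genes with a tumour mean above the median gene and an SD over tumours of at least 1 (log2), Parm1, a membrane glycoprotein gene, had the highest Pearson correlation with Stc1, at 0.982, with 953, 399, 209, 1456, 1781 and 2414 in tumours 1 to 6. Fbxo32, the muscle atrophy ligase atrogin-1, followed at 0.978 and Pygl, the liver glycogen phosphorylase, at 0.948. Next came Emb (embigin), Slc25a13 (a mitochondrial aspartate-glutamate carrier), Pag1, Il13ra1, Dsp (desmoplakin), Tnfaip2 and the imprinted noncoding gene Meg3, at 0.945 to 0.914. The lowest correlations were those of Sap30, Ank, Ccn2, Lgalsl and Mme, at -0.985 to -0.962. Ccn2, connective tissue growth factor, was 1720 in tumour 3, where Stc1 was lowest, and 229 and 304 in tumours 5 and 6. They were picked out of many genes over 6 tumours that share these arrays, so they are descriptions with no p. Leaving out any 1 tumour kept 4 to 6 of the first 10 genes among the first 10.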

How the data were processed

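Each array was deposited as signal intensities on a linear scale; per the submitters' processing notes they come from MAS5 (version unstated). MAS5 subtracts background and mismatch signal. Neither a scaling target nor detection calls were used here, so low signals can be background. Of 22690 probe sets 64 controls were left out. All arrays were multiplied to 1 mean, trimmed by 2% at each end. Tests ran on log2(signal + 16) over 22626 probe sets with limma 3.58.1 in R 4.3.3 (lmFit, eBayes with trend, 6 tumours and 3 muscles, no covariates), with Benjamini-Hochberg adjustment over all probe sets. Folds are on this offset scale, which understates changes of dim genes. Lists used each gene's brightest probe set, by its mean over all arrays. Exact permutation tests used Python 3.11.15 and scipy 1.17.1.

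The members and lists were chosen with earlier results of these data known. The genes named were all members, of each list the called genes with the largest difference (at most 3 on the side with more calls, at most 2 on the opposite side), and the 10 genes most and 5 least like Stc1. Genes named beside these (such as Car9, Vhl, Epas1, Ero1a or Alas2) were chosen after their values were seen. Tested on simulated data of 22626 probe sets for this comparison, the fit called 2% of 2-fold, 44% of 4-fold and 72% of 8-fold changes, and 5 of 22426 unchanged probe sets. Of the simulated probe sets 200 changed, all upward, with independent normal draws and the same spread in both groups. Among the real probe sets 15.4% were called, in both directions, so these rates need not hold for them. The number of arrays limits the precision. Alternatives were other normalizations, offsets of 1 and 64, a filter on low values, other choices of probe set, other variance models, a replicate block and leaving out arrays.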

Additional observations from a re-analysis of the deposited data

Results flagged for a closer look

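In 3 of 22 probe sets tumour 1 lay far from the other 5 tumours on the log2 scale, judged by its gap to the nearest tumour as a share of the whole range (limit 0.625). It was lowest for 2 probe sets of Hif1a, with shares of 0.678 (1427418_a_at) and 0.628 (1416035_at). It was highest for Ndrg1 probe set 1423413_at, with a share of 0.722. Chance flags about 1 in 20 groups, and probe sets of 1 gene are not independent.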

How the results depend on the processing

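Of the 9 genes beside Stc1, 3 were called (0 higher, 3 lower). The count was 1 without the intensity trend and with median centring, and 5 (4 higher, 1 lower) without rescaling; without 1 array it ran from 1 to 4. It was 1 without muscle 1, 2 or 3 or tumour 5. The share of all genes called was then 11.7%, 9.88%, 8.53% and 14%, against 17.2% with all arrays. That share was 16.1% without the intensity trend, 14.4% with median centring and 21.3% without rescaling. Of 56 other hypoxia pathway genes 19 were called, and 8 to 21 without 1 array, where 8.53% to 21.5% of all genes were called. Without rescaling the 18 called were all higher, where 2281 of all 12393 genes were called higher and 357 lower. Whether the replicate numbers pair the samples is not said in the labels and was not settled here. Deviations of tumours and muscles of the same number correlated at 0.21, 0.16 and -0.02. Tumours 1 and 2 correlated best with the muscle of their own number, and tumour 3 did not. On tumours 1 to 3 and the muscles, 2 members and 9 pathway genes were called without a block, and 2 and 15 with the replicate number as a block. The share of all genes called was 8.83% without the block and 12% with it. The Stc1 difference stayed between 3.1 and 5.41 over 22 alternatives. None of the 9 relations with Stc1 passed in any of 13 alternatives. Without 1 tumour r ran from -0.89 to 0.17 for Stc2, -0.25 to 0.07 for Hif1a, -0.66 to 0.27 for Egln1, -0.08 to 0.62 for Vegfa and -0.37 to 0.45 for Bnip3. Correlations turned sign: Hif1a to 0.24 as the mean of its probe sets and 0.07 without tumour 1, Bnip3 to -0.12 as that mean, -0.06 without tumour 3 and -0.37 without tumour 6, Stc2 to 0.17 without tumour 3, and Egln1 and Vegfa to -0.66 and -0.08 without tumour 6. The causes were not tested. Without detection calls, dim probe sets such as Adm or the second of Stc1 cannot be told from background.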

Other observations

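Among themselves, the members gave 45 pairs over the 6 tumours, and 0 passed after adjustment (4 had an exact permutation p under 0.05; smallest adjusted p = 0.062). Ndrg1 and Bnip3 ran closest, with a Pearson r of 0.9 (exact permutation p = 0.0014, adjusted p = 0.062) and a Spearman rho of 1.0 (exact permutation p = 0.0028, adjusted p = 0.12), and r was 0.77 without the 2 tumours farthest from the Ndrg1 median. Egln1 and Bnip3 followed at 0.9 (exact permutation p = 0.0042, adjusted p = 0.094; rho of 0.94, exact permutation p = 0.017, adjusted p = 0.19), with 0.85 without the 2 farthest. By their brightest probe sets, Bnip3 and Egln1, both lower in tumours, and Ndrg1, which was not called, ranked the tumours alike, with tumours 6 and 2 on top. Other probe sets did not all share this order. The second of Egln1 ran against the brightest (r = -0.64), as did 1423413_at and 1450977_s_at of Ndrg1 (-0.61 and -0.45). Ndrg1 probe sets 1450976_at and 1456174_x_at ran with it (0.56 and 0.9). Vegfa and Adm had an r of 0.83 (exact permutation p = 0.04, adjusted p = 0.38) and a rho of 0.94 (exact permutation p = 0.017, adjusted p = 0.19), with 0.89 without the 2 farthest. These pairs were looked at after the values had been seen.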
